A study of Mus musculus with 6 samples.

Results

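The mitochondrial ribosomal protein genes were taken as all rows of the deposited gene table whose symbol begins with Mrpl or Mrps followed by a digit. The rule found 78 genes among the 22322 of the table and used no measured value. They were read in double-positive (DP) thymocytes, the CD4+CD8+ stage of T cell development, sorted from mice of 2 genotypes. Control mice were Paxbp1fl/fl littermates, labelled WT, in which exon 8 of Paxbp1 is flanked by loxP sites. Paxbp1 cKO mice carried the same floxed alleles together with the Lck-cre transgene, in which the Lck promoter drives Cre recombinase in the T cell lineage. Both groups were on the C57BL/6 background, untreated, of mixed sexes and 4 to 7 weeks old. Each genotype had 3 RNA-Seq libraries. The labels do not say whether libraries came from separate mice, so that all p-values measure the spread between these libraries, which may be technical.

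Mitochondria hold their own ribosome, the mitoribosome. Its RNAs come from the mitochondrial genome, while all of its proteins are encoded in the nucleus, made by cytosolic ribosomes and imported. The mitoribosome translates the respiratory chain and ATP synthase subunits that mitochondrial DNA encodes. Some of its proteins descend from bacterial ribosomal proteins, and others are specific to mitochondria. In the known structures, 51 of the 78 gene products sit in the large subunit and 26 in the small subunit. Mrps30 and Mrps18a are named for the small subunit but belong to the large one, and Mrps36 is a subunit of the 2-oxoglutarate dehydrogenase complex rather than a ribosomal protein.

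Expression of the mitochondrial ribosomal protein genes differed little between control and Paxbp1 cKO DP thymocytes. All 78 passed the filter on low counts, and 2 rose in the cKO at an adjusted p below 0.05, Mrps22 by 1.67-fold (95% interval 1.35 to 2.06) and Mrpl49 by 1.40-fold (95% interval 1.18 to 1.67). These were 2.56% of the members, against 4.47% of all 11488 tested genes called higher. No member was called lower by edgeR, against 5.89% of tested genes called lower. In either direction 10.4% of all tested genes were called. At the threshold of the study, an absolute log2 fold change above 1 with an adjusted p below 0.05, 0 members and 2.76% of tested genes passed. DESeq2 called 1 member lower and limma-voom 0. At an unadjusted p under 0.05, 5 members were higher in the cKO, namely Mrps22, Mrpl49, Mrps7, Mrpl9 and Mrpl1, and 3 were lower, namely Mrpl24, Mrpl58 and Mrpl21. These were 6.41% and 3.85% of the members, against 13.3% of tested genes higher and 14.6% lower at the same unadjusted p.

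The regions around the transcription start sites of the 2 genes that rose are shown because promoters of mitochondrial ribosomal protein genes are known to carry sites for ETS factors, YY1 and nuclear respiratory factor 1. Each is the RefSeq sequence of build GRCm38.p6 from 250 bases before to 30 bases after the start, 5′ to 3′ on the minus strand, at chr9:98601650-98601929 for Mrps22 and chr19:6057726-6058005 for Mrpl49. Capitals mark the match to an ETS motif (CCGGAAG) in Mrps22 and to a YY1 motif (AAGATGGC) in Mrpl49.
Mrps22: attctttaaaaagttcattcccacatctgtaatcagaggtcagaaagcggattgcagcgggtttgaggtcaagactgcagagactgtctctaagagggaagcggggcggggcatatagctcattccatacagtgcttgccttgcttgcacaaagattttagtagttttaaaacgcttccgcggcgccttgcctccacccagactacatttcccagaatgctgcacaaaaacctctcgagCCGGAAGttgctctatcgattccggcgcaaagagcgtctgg
Mrpl49: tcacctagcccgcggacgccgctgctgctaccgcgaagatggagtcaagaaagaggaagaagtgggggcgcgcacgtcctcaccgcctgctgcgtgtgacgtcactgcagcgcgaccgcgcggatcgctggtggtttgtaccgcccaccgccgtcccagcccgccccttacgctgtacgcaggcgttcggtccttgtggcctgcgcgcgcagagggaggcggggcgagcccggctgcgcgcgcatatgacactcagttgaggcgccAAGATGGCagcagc
The ETS match of Mrps22 began 11 bases before the start, and the YY1 match of Mrpl49 began at base 17 of the transcript. These motifs and an NRF1 motif (GCATGCGC) were searched on both strands of the RefSeq windows from 250 bases before to 50 bases after each start, of which the table held one or more for 69 of the 78 members. CCGGAAG was found in 26 members (37.7%), against 21.6% of 9154 tested genes with a window and 9.93% of all 27025 genes with one. AAGATGGC was found in 12 members (17.4%, against 5.53% and 3.19%) and GCATGCGC in 8 (11.6%, against 6.40% and 3.05%). In all, 38 members (55.1%) held at least 1 of the motifs, against 30.3% of tested genes and 14.9% of all genes. A match describes these letters only and does not show that a factor binds there. The median log2 fold change of the members was -0.05 for the 26 members with the ETS motif and 0.05 for the 43 without it. It was 0.10 for the 12 with the YY1 motif and -0.0019 for the 57 without it, and 0.16 for the 8 with the NRF1 motif and 0.0032 for the 61 without it.

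Mrps22 (ENSMUSG00000032459), a small-subunit protein with no bacterial counterpart, is annotated by GENCODE M21 on build GRCm38 at chromosome 9, from 98588730 to 98601660, minus strand. Its level was 33.4, 37.7 and 41.7 CPM (counts scaled to library size by TMM) in control libraries 1 to 3 and 62.1, 62.5 and 63.4 CPM in cKO libraries 1 to 3. All cKO libraries were above all control libraries, and the gap between the groups exceeded the spread within either. The log2 fold change was 0.74 (SE 0.138, adjusted p = 0.0113), and it was the only member whose 95% interval reached beyond a 2-fold change, from 0.43 to 1.04 on the log2 scale. Per length, the mean level was 31.2 FPKM in the control and 52.7 FPKM in the cKO. The call was lost without cKO library 3 (log2 fold change 0.73, adjusted p = 0.0680) and held under every other setting run. No exon of another annotated gene overlaps its exons. In sorted bulk cells, less RNA per cell and fewer cells of a type cannot be told apart, for this and every other gene.

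Mrpl49 (ENSMUSG00000007338), a large-subunit protein also specific to mitochondria, lies on chromosome 19 from 6053622 to 6057785, minus strand. Control libraries 1 to 3 held 94.3, 85.1 and 91.4 CPM, and cKO libraries 1 to 3 held 127.3, 119.3 and 132.6 CPM. The groups did not overlap. The log2 fold change was 0.49 (SE 0.114, adjusted p = 0.0264). This call depended on the number of libraries more than that of Mrps22: it was lost on leaving out any 1 library other than control 1, with an adjusted p between 0.0529 and 0.128 and a log2 fold change of 0.44 or more. The gene starts 59 bp from Fau, which runs the other way and encodes a fusion of a ubiquitin-like protein with the cytosolic ribosomal protein S30. Fau had a log2 fold change of 0.14 (adjusted p = 0.476).

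**Figure D1:**
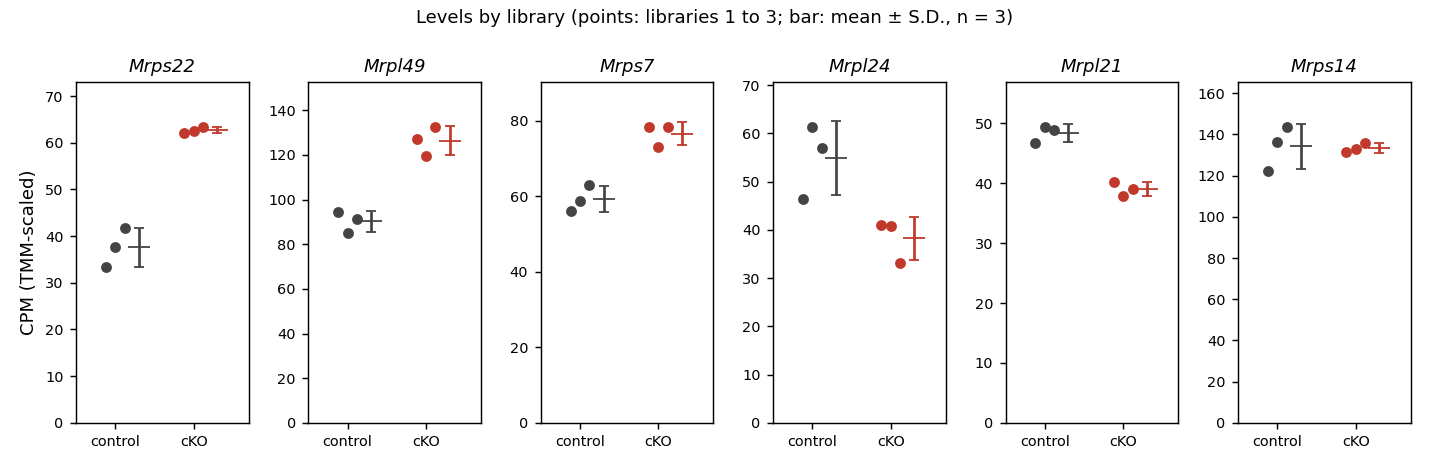
Levels of 6 members in each library, in TMM-scaled CPM on axes that start at 0. Grey points are the 3 control libraries and red points the 3 cKO libraries, with the mean ± S.D. beside them. Mrps22, Mrpl49 and Mrps7 lie higher in every cKO library, Mrpl24 and Mrpl21 lower, and Mrps14, the member with the highest FPKM, overlaps.

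Several members stood close to the threshold without passing it. Mrps7, the homologue of the bacterial protein that organises the head of the small subunit, measured 56.0, 58.7 and 62.9 CPM in the control and 78.4, 73.0 and 78.2 CPM in the cKO, with no overlap (log2 fold change 0.37, SE 0.122, adjusted p = 0.0790). Mrpl24, whose bacterial homologue lines the rim of the peptide exit tunnel, measured 46.4, 61.4 and 57.0 CPM in the control and 40.9, 40.7 and 33.1 CPM in the cKO, again with no overlap (log2 fold change -0.52, SE 0.160, adjusted p = 0.0634). DESeq2 placed both past the threshold, Mrpl24 with an adjusted p of 0.0335 and Mrps7 with 0.0464. Of the exon bases of Mrpl24, 26.3% are also exonic on the opposite strand, in Rrnad1, and of those of Mrps7, 11.9%. No source used here states whether counting used strand, so that reads of such pairs may not have been told apart.

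Among the other members with the highest log2 fold changes, Mrpl14 had 0.37 (adjusted p = 0.277) and Mrpl9 0.34 (adjusted p = 0.172). Both overlapped between the groups: Mrpl14 measured 22.1, 38.6 and 35.5 CPM in the control against 43.5, 37.1 and 43.9 CPM in the cKO, and Mrpl9 measured 118.9, 81.2 and 88.3 CPM against 127.9, 121.5 and 116.4 CPM. At the other end, Mrpl21 measured 46.7, 49.5 and 49.0 CPM in the control and 40.3, 38.0 and 39.1 CPM in the cKO. It did not overlap, but its log2 fold change of -0.31 had an adjusted p of 0.160. Mrpl58, the peptidyl-tRNA hydrolase also called Ict1 that became part of the large subunit, had -0.32 (adjusted p = 0.146), Mrpl48 had -0.32 (adjusted p = 0.301) and Mrps9 -0.24 (adjusted p = 0.317). These 3 overlapped between the groups, Mrps9 with 54.4, 72.8 and 69.1 CPM in the control against 53.9, 58.2 and 54.2 CPM in the cKO. Control library 1 held the lowest control value of Mrpl58, Mrpl48, Mrps9 and Mrpl14 and the highest of Mrpl9. Without it 6 members passed the threshold, Mrps22, Mrpl49 and Mrpl9 higher and Mrpl24, Mrpl58 and Mrpl48 lower. The same fit called 17.1% of all its tested genes, against 10.4% with all libraries.

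The group as a whole was centred on no change. The median log2 fold change of the 78 members was 0.02, against -0.0017 for all tested genes. Above 0 lay 42 members and below it 36, against 5718 and 5770 of all 11488 tested genes. Their interquartile range was 0.32, against 0.59 for all tested genes and 0.49 for the 6251 tested genes within the CPM range of the members. In 76 members (97.4%) the log2 fold change lay within 0.5 of 0, against 71.9% of tested genes and 80.5% of those in that CPM range. The exceptions were Mrps22 and Mrpl24. The 95% interval, taken gene by gene, stayed within a 2-fold change in either direction for 77 members (98.7%), against 65.7% of all tested genes and 85.4% of the 6251 tested genes within the CPM range of the members. A narrower bound of 0.5 held the interval in 43 members (55.1%), against 21.9% of tested genes and 28.3% of those in that CPM range. In the others, Mrps22, Mrpl49, Mrps7 and Mrpl24 among them, the interval reached past that bound on at least one side. Control and cKO libraries did not overlap in 16 members (20.5%), 10 higher and 6 lower in the cKO. Of all tested genes 33.0% did not overlap, and 34.7% of those in that CPM range. The 79 tested nuclear-encoded respiratory chain subunits had an interquartile range of 0.18, with 97.5% within 0.5 of 0 and 12.7% not overlapping. Their 95% interval stayed within 0.5 in 78.5%, so that a narrow spread was not particular to the members.

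**Figure D2:**
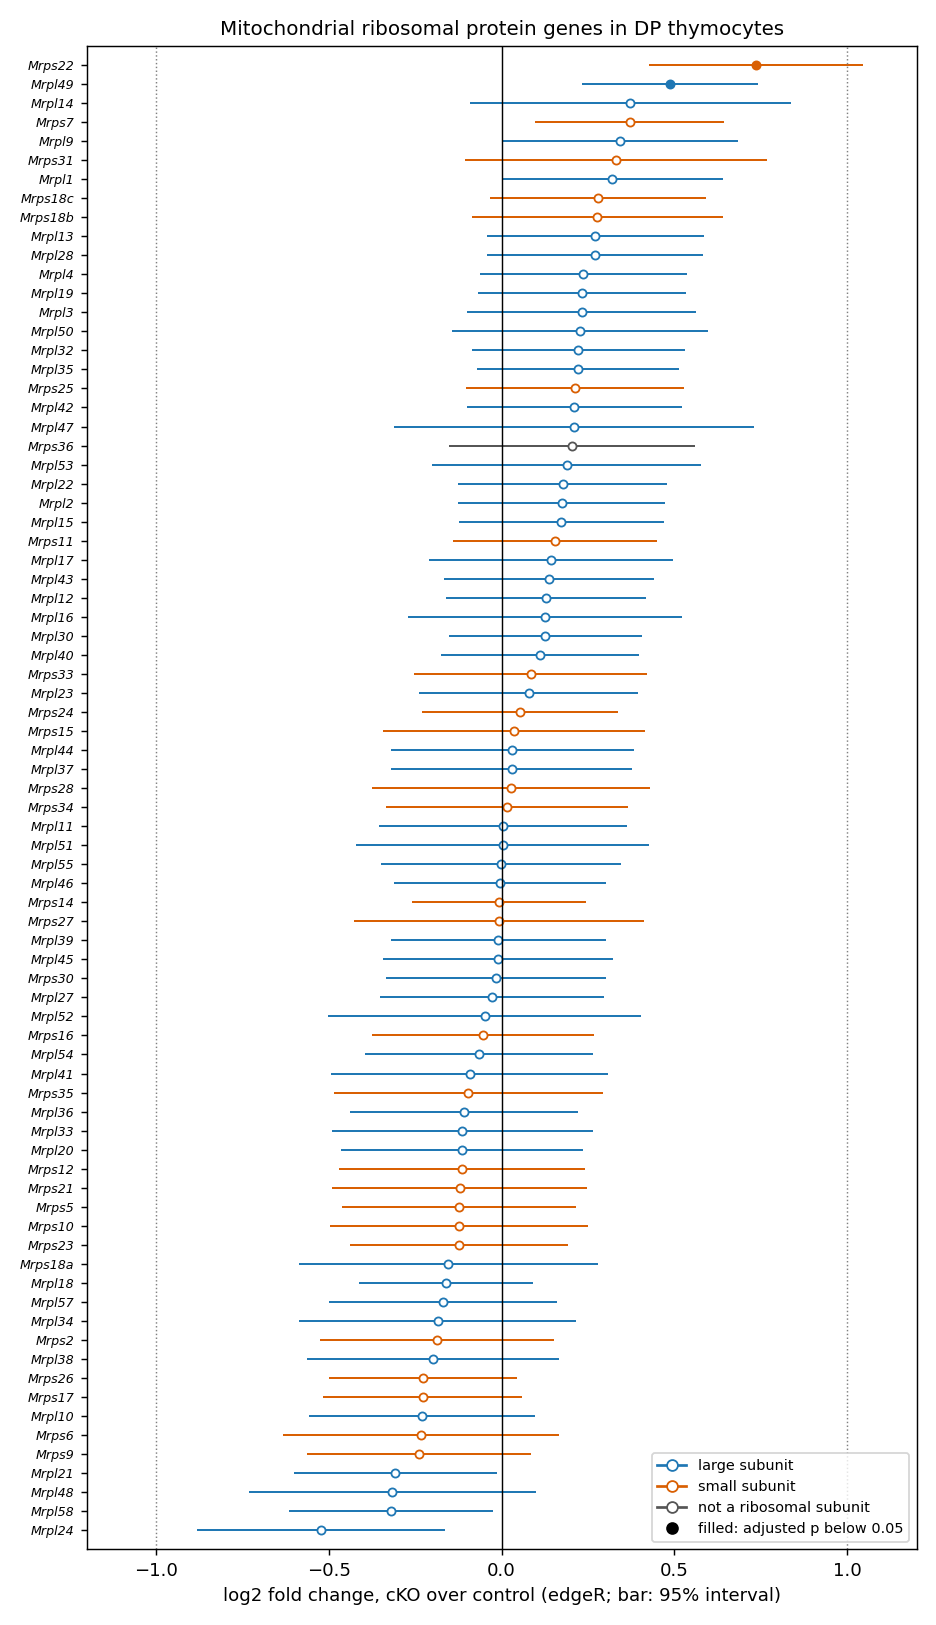
Log2 fold change of each of the 78 members, cKO over control, from edgeR, with its 95% interval and members in order of the change. Blue marks the large subunit, orange the small subunit and grey Mrps36, filled points have an adjusted p below 0.05, and dotted lines mark a 2-fold change. Mrps22 and Mrpl49 are the 2 filled points, and 77 intervals lie between the dotted lines.

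Both subunits had a median near 0. The 51 large-subunit members had a median of 0.03 with 1 called (Mrpl49, 1.96%). The 26 small-subunit members had a median of -0.01 with 1 called (Mrps22, 3.85%). Of all tested genes 10.4% were called. The sign of the small-subunit median was not stable under the settings run. Of the 46 members with a bacterial homologue 0 were called by edgeR, 2 by DESeq2 (Mrps7 and Mrpl24) and 0 by limma-voom. By edgeR 5 of the 46 had an unadjusted p under 0.05. Of these, 3 were higher (6.52%) and 2 lower (4.35%), against 13.3% and 14.6% of tested genes. Of the 29 specific to mitochondria 2 were called by each tool. The difference between these classes was not tested. Mrpl12, the stalk protein that binds translation factors, had a log2 fold change of 0.13 (adjusted p = 0.567), and its values of 60.3, 72.5 and 73.6 CPM in the control and 78.6, 73.2 and 73.8 CPM in the cKO overlapped.

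The 3 S18 proteins are copies of 1 bacterial ancestor, of which Mrps18b and Mrps18c belong to the small subunit and Mrps18a to the large one. Mrps18c measured 51.1, 59.0 and 64.3 CPM in the control and 64.5, 69.8 and 77.1 CPM in the cKO, which did not overlap by a narrow margin (log2 fold change 0.28, adjusted p = 0.226). Mrps18b overlapped, with 30.9, 30.2 and 38.0 CPM in the control and 45.0, 39.7 and 35.6 CPM in the cKO (log2 fold change 0.28, adjusted p = 0.301). Mrps18a had a log2 fold change of -0.15 (adjusted p = 0.658), but its control libraries alone ran from 38.0 to 65.9 CPM, around all 3 cKO values of 44.7 to 51.1 CPM, and its sign turned without control library 3. Mrps30 had -0.02 (adjusted p = 0.958), and Mrps36, the dehydrogenase subunit, 0.20 (adjusted p = 0.443).

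Levels between genes were compared per length, as FPKM deposited by the authors. The members were expressed within a narrow band: their mean over all 6 libraries had a median of 46.2 FPKM, against 12.9 FPKM for all tested genes, and 75 of the 78 members exceeded 10 FPKM. The 90th percentile was 6.0 times the 10th percentile among members and 146 times among all tested genes. The highest were Mrps14 (160 FPKM), Mrpl42 (155 FPKM) and Mrpl18 (122 FPKM), and the lowest Mrpl47 (7.11 FPKM), Mrpl19 (8.93 FPKM) and Mrps25 (9.14 FPKM). In CPM, which does not divide by length, Mrpl19 and Mrps25 were in the middle of the range, at 41.0 ± 2.86 and 51.4 ± 5.57 CPM in the control (S.D., n = 3). The 3 lowest have long gene models, with 4419, 5450 and 6576 exonic bases for Mrpl47, Mrpl19 and Mrps25 against a median of 2394 over the members. By the same annotation, longer models also occurred at higher levels, in Mrpl17 (7605 bases, 52.2 FPKM), Mrpl13 (7936 bases, 58.9 FPKM) and Mrpl15 (8487 bases, 46.7 FPKM). These annotated lengths are not those by which the authors scaled, so they cannot show what part length has in an FPKM. Mrpl17 and Mrpl19 had similar control means of 41.4 and 41.0 CPM. Their control means per length were 48.5 and 8.15 FPKM, although Mrpl17 has the longer annotated model. The part of the authors' lengths in the low FPKM was not tested. Of the exon bases of Mrps25, 69.8% are also exonic on the opposite strand, in Nr2c2, and of those of Mrpl19, 36.0%, in Gcfc2. None of these 6 genes was called: Mrps14 measured 122.4, 136.4 and 143.7 CPM in the control and 131.3, 133.0 and 136.0 CPM in the cKO (log2 fold change -0.01, adjusted p = 0.976), and its sign turned with the scaling.

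**Figure D3:**
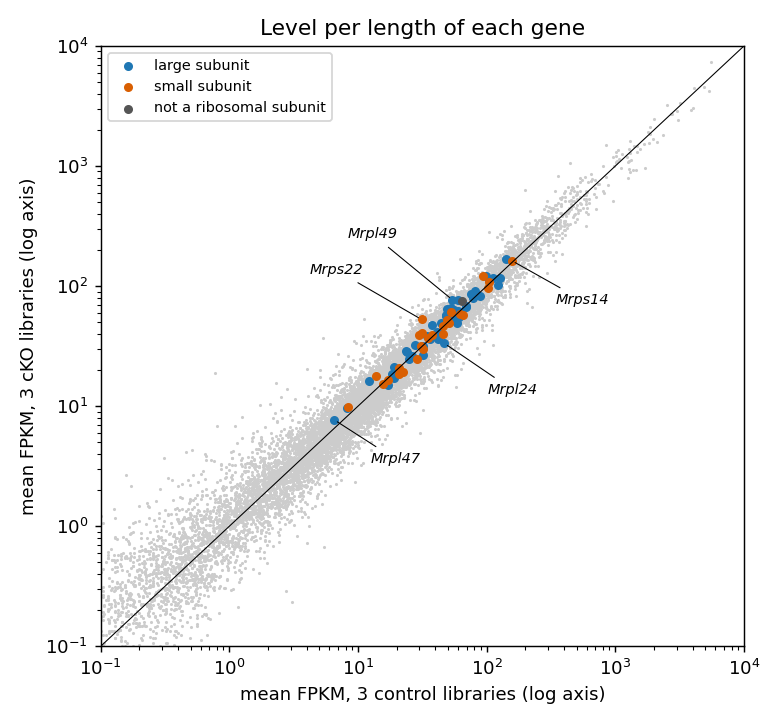
Mean FPKM of the 3 control libraries against that of the 3 cKO libraries, both on log axes, for the 11304 tested genes with at least 0.1 FPKM in both groups (pale grey) and the 78 members (blue, large subunit; orange, small subunit; dark grey, Mrps36). The members lie along the line of equality, from Mrpl47 at 7.11 FPKM to Mrps14 at 160 FPKM over all libraries.

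The summed level of the 78 members was 4419 ± 314 CPM in the control and 4578 ± 57.8 CPM in the cKO (S.D., n = 3). The control libraries therefore differed more among themselves than the group means did. Control library 1 held the lowest of the 6 values in 38 of the 78 members, and control library 3 the highest in 25. The median coefficient of variation of a member was 12.3% among control libraries and 6.95% among cKO libraries, against 16.3% and 13.3% for all tested genes. Leaving out control library 1 moved the median log2 fold change of the members to -0.04 and leaving out control library 3 moved it to 0.10.

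Mitoribosomal proteins whose genes carry other names were read beside them. Dap3, Ptcd3, Chchd1, Aurkaip1 and Gadd45gip1 were all tested and had a median of 0.19 (0.12 without control library 1), with 0 called by edgeR, 2 at an unadjusted p under 0.05, 1 called by DESeq2 (Ptcd3) and 0 by limma-voom. Ptcd3, a pentatricopeptide repeat protein of the small subunit, measured 128.5, 124.1 and 120.4 CPM in the control and 161.1, 149.9 and 162.6 CPM in the cKO (log2 fold change 0.34, adjusted p = 0.0647). Dap3, a GTP-binding protein of the small subunit, went the other way, from 141.0, 170.0 and 169.2 CPM to 133.4, 138.3 and 126.9 CPM (log2 fold change -0.27, adjusted p = 0.171).

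Of 26 genes for mitoribosome assembly and modification of its ribosomal RNA, all tested, 1 rose (3.85%, against 4.47% of all tested genes) and 0 fell by edgeR, with 5 at an unadjusted p under 0.05. DESeq2 called 3, with Gtpbp10 higher (0.71, adjusted p = 0.0402) and Mtg2 lower (-0.63, adjusted p = 0.0309) added, and limma-voom 1. Their median was -0.02, and it ranged from -0.06 to 0.06 on leaving out 1 library. The one called was Rcc1l, an assembly factor, with 18.1, 16.1 and 14.9 CPM in the control and 29.1, 28.5 and 26 CPM in the cKO (log2 fold change 0.77, adjusted p = 0.0211). The call was lost on leaving out any library but control 1. Among 13 tested mitochondrial translation factors 0 were called by edgeR, 4 were at an unadjusted p under 0.05, and DESeq2 called 2 and limma-voom 1. Their median was 0.25, with 11 of 13 above 0, and it moved to 0.14 without control library 3, 0.15 without cKO library 2 (8 of 13 above 0) and 0.42 without control library 1. Gfm1, the elongation factor that moves the mitoribosome along its mRNA, had a log2 fold change of 0.55 (adjusted p = 0.0614).

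Among 15 genes for transcription of mitochondrial DNA, its replication and the stability of its RNA, 2 rose and 1 fell. That was 20% in either direction, against 10.4% of all tested genes. Polg2, the accessory subunit of the mitochondrial DNA polymerase, measured 25.4, 18.1 and 14.4 CPM in the control and 71.8, 35.2 and 63.9 CPM in the cKO (log2 fold change 1.56, adjusted p = 0.00991). Tfam, which packages mitochondrial DNA and starts its transcription, rose from 76.8, 76.1 and 73.0 CPM to 102.8, 100.8 and 110.7 CPM (log2 fold change 0.48, adjusted p = 0.0285). Lrpprc, which binds and stabilises mitochondrial mRNAs, fell from 48.3, 53.8 and 57.0 CPM to 33.9, 35.8 and 26.2 CPM (log2 fold change -0.73, adjusted p = 0.0214). Groups did not overlap in any of the 3. Without cKO library 3 all 3 calls were lost, that of Polg2 with an adjusted p of 0.0627, and those of Tfam and Lrpprc were also lost without control library 2, control library 3 or cKO library 1, and that of Tfam without cKO library 2. The 13 protein-coding genes of the mitochondrial genome, the templates of the mitoribosome, had a median of 0.11 with 11 of 13 above 0, and 0 were called by edgeR, DESeq2 or limma-voom and 0 had an unadjusted p under 0.05 by any of them. This median rested on single libraries: it was -0.34 without cKO library 1 (1 of 13 above 0), 0.32 without cKO library 3 (13 of 13), 0.19 without cKO library 2 and 0.066 without control library 2, and limma-voom gave 0.016 (7 of 13). The summed level of the 13 genes was 31668 CPM in cKO library 1 and between 14492 and 20273 CPM in the other libraries. Of the 2 mitochondrial ribosomal RNAs, sought by symbol, 0 were found among the deposited genes, so that they could not be analysed. Of 10 tested factors known to act on promoters of such genes, 20% were called, against 10.4% of all tested genes. Pprc1, a coactivator of the PGC-1 family, rose by 0.79 on the log2 scale (adjusted p = 0.0370) and Nrf1 fell by 0.41 (adjusted p = 0.0394). Both calls were lost on leaving out control library 2 or any cKO library.

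The proteins of the cytosolic ribosome were set beside those of the mitoribosome. All 83 tested cytosolic ribosomal protein genes had a log2 fold change above 0, with a median of 0.40. By edgeR 18 rose (21.7%, against 4.47% of all tested genes) and 0 fell, led by Rpl5 (0.60, adjusted p = 0.0122) and Rpl23 (0.66, adjusted p = 0.0124). DESeq2 called 46 and limma-voom 28, all higher, whereas 0 were called without control library 2, cKO library 1 or cKO library 3. Their direction was the same in all of the settings run, with medians from 0.29 to 0.50, while those of the mitochondrial ribosomal protein genes ran from -0.04 to 0.10. The 79 tested nuclear-encoded subunits of the respiratory chain and ATP synthase, which work beside the products of the mitoribosome, had a median of -0.03 with 32 above 0 (-0.15 with 14 above 0 without control library 1). By edgeR 1 was called (1.27%, against 10.4% of all tested genes), Uqcrb of complex III (log2 fold change 0.45, adjusted p = 0.0466). The call of Uqcrb was lost on leaving out any library but control 1. The difference between the families was not tested.

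**Figure D4:**
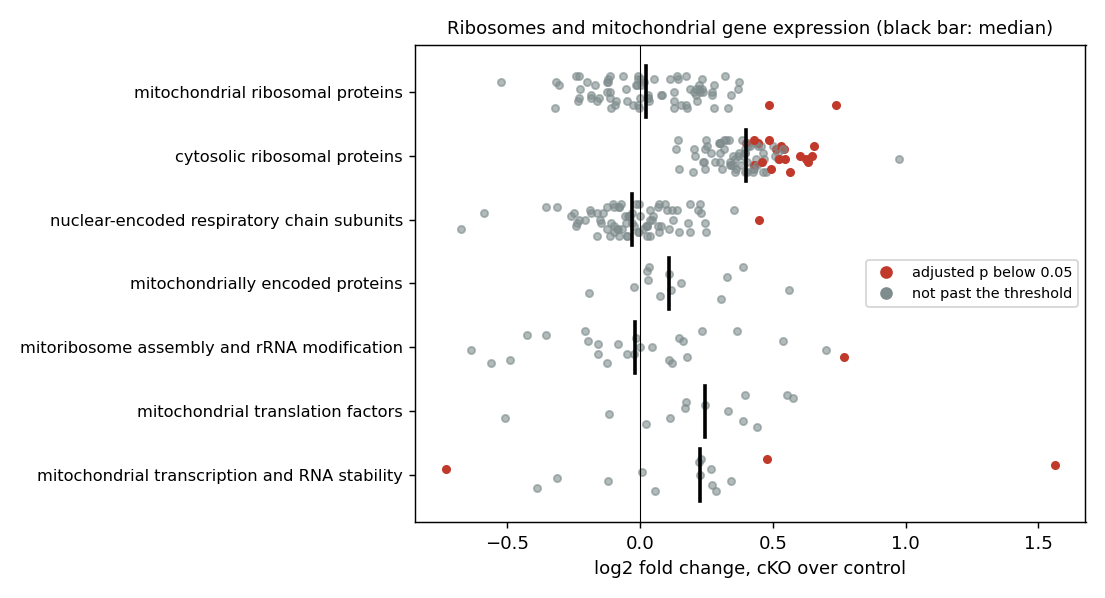
Log2 fold change, cKO over control, of each tested gene in 7 families, with the vertical place within a row arbitrary. Red points have an adjusted p below 0.05 and the black bar is the median, which is 0.02 for mitochondrial and 0.40 for cytosolic ribosomal proteins.

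In position, the 78 members were spread over 17 chromosomes, with at most 11 on 1 of them (chromosome 11). A tested neighbour that starts within 1000 bp and runs the other way was annotated for 17 members (21.8%), against 10.1% of 11403 tested protein-coding genes. Of these 17 neighbours 0 were called higher and 2 lower, 11.8% in either direction against 10.4% of all tested genes. Pnpla7, beside Mrpl41, had a log2 fold change of -0.61 (adjusted p = 0.0413), and Sars2, the mitochondrial seryl-tRNA synthetase beside Mrps12, had -0.53 (adjusted p = 0.0497). Their partners among the members were not called, with -0.09 for Mrpl41 (adjusted p = 0.785) and -0.11 for Mrps12 (adjusted p = 0.692). Both neighbours' calls were lost without cKO library 1 or 3, among others. Mrpl46 and Mrps11, which run in opposite directions and share 173 exonic bases, had -0.01 and 0.15 (adjusted p = 0.985 and 0.489). In all, 28 members shared exonic bases with a gene on the opposite strand, 14 of them over more than 10% of their length. On the same strand 8 shared some with another gene. Mrpl23, Mrpl48 and Mrps36 have annotated pseudogenes named after them. Pseudogenes under other names were not searched, and no sequences were compared. Counts of all these members are less certain.

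The libraries held between 18963775 and 26252248 counts, and members had at least 240 counts in every library. Paxbp1 itself, counted over the whole gene rather than the floxed exon, had 774, 318 and 400 counts in the control and 851, 905 and 1075 in the cKO (log2 fold change 0.92, adjusted p = 0.0977), which does not check the deletion of exon 8. All 11 markers of DP thymocytes were detected in every library, and all 11 had a log2 fold change below 0, with a median of -0.37. Of these, 4 were called lower (Ly6d, Rag1, Cd3e and Cd8b1), 36.4% against 5.89% of all tested genes. The list summed to between 11380 and 13554 CPM in the control and between 8392 and 9781 CPM in the cKO. Of 20 macrophage markers 14 were tested, 12 of them above 0 and 2 below. By edgeR 6 rose (Adgre1, C1qc, C1qb, Cd5l, Ctss and Cd68), 42.9% against 4.47% of all tested genes. The list summed to 26.1 to 61.8 CPM in the control and 76.4 to 95.7 CPM in the cKO. Adgre1 and Cd5l were at 0 in all control libraries, and Mertk, Marco and Vsig4 at 0 in all 6. Of 4 tested B cell markers 1 was called, Cd79b, which fell with a log2 fold change of -0.70 (adjusted p = 0.0194). The others went both ways, with -0.38 for Ighm, -0.30 for Igkc and 1.04 for Blnk (adjusted p = 0.0887, 0.880 and 0.226). The sums of the DP and macrophage lists and the level of Cd79b separate the groups as Mrps22 and Mrpl49 do. The part of these marker shifts in the results for Mrps22 and Mrpl49 was not tested.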

How the data were processed

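Sorted DP thymocytes were profiled by RNA-Seq. For library preparation, the labels and the methods name different kits (SMARTER in the labels, Discover-sc WTA and TruePrep in the methods). The submitters' processing notes name fastp 0.18.0, Bowtie2 2.2.8, HISAT2, StringTie and RSEM. Build, annotation and strand setting were not given in the sources used here. From these reads the authors deposited 1 table with raw read counts per gene and library and with FPKM, scaled by the authors to gene length and library size. Its fold changes, p-values and FDR come from the authors' own comparison and were not used.

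Counts were compared in R 4.3.3 with edgeR 4.0.16 (filterByExpr, minimum count 10 and minimum total 15, TMM, quasi-likelihood test, genotype as the only term), with Benjamini-Hochberg adjustment over 11488 tested genes of 15349 with a count. A call is an adjusted p below 0.05. Libraries held 18963775 to 26252248 counts, and 1 count equalled between 0.0381 and 0.0527 CPM. With 3 against 3 libraries an exact permutation test of 1 gene cannot give a two-sided p below 0.1. No pair of libraries within a group was a duplicate (chi-square per degree of freedom 19.1 to 64.9). Positions came from GENCODE M21 on GRCm38, matched by identifier, and promoters from RefSeq, matched by symbol. The script was tested on simulated counts.

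The named members are those past the threshold, the 5 highest and 5 lowest by log2 fold change, the 3 highest and 3 lowest by FPKM, and 6 with known roles, with up to 5 genes past the threshold from each list fixed with them. Other genes, among them Mrpl1, Mrpl41, Mrps12, Mrpl46, Mrps11, Mrpl23, Ptcd3, Dap3, Gfm1, Gtpbp10, Mtg2, Cd68, Uqcrb, Rpl5, Rpl23, Fau, Sars2 and Pnpla7, were named after their values were seen. The members and lists were chosen with earlier results of these data known, and the lists of cytosolic ribosomal proteins and respiratory chain subunits were added after these data had been seen. Alternatives were other scalings and filters, DESeq2 1.42.0, limma-voom (limma 3.58.1), the replicate number as a block and leaving out each library.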

Additional observations from a re-analysis of the deposited data

How the results depend on the processing

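The counts of members called by edgeR, 2 higher and 0 lower, were the same without a low-count filter, with a minimum mean of 5 CPM, with RLE factors, scaled by total counts, in limma-voom and with the replicate block. DESeq2 called 4, 3 higher and 1 lower. Leaving out 1 library gave 0 to 3 called higher and 0 to 3 called lower: 3 and 3 without control 1, 1 and 0 without control 2, control 3, cKO 1 or cKO 2, and 0 and 0 without cKO 3, where 4 members had an unadjusted p under 0.05. The median of the large-subunit members ranged from 0.020 to 0.12 over these, and that of the small-subunit members from -0.094 to 0.030. The latter also turned positive with RLE factors (0.0030), total counts (0.013), 5 CPM (0.0081), DESeq2 (0.0019), limma-voom (0.0054) and the replicate block (0.0071). The sign of Mrps14 turned with RLE factors (0.0032), total counts alone (0.013), a mean of 5 CPM (0.0079) and DESeq2 (0.0020), and that of Mrps30 with total counts alone (0.0014). On leaving out 1 library Mrps14 ranged from -0.072 to 0.042, Mrps30 from -0.16 to 0.089 and Mrps18a from -0.35 to 0.018. The cause was not tested. Over all genes edgeR called 1191, DESeq2 1912, and the fits without 1 library 120 (without cKO 3) to 2030 (without control 1).

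Deviations of same-numbered control and cKO libraries had correlations of 0.05, 0.04 and -0.03 over genes, and those of differently numbered ones ran from -0.08 to 0.04. With 3 libraries in each group these values cannot decide whether the numbers pair libraries. With the replicate block 2 members were called higher and 0 lower, and 1238 genes in all.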
